A study of Rattus norvegicus with 24 samples.

Results

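The genes described here are 156 of the 17323 Ensembl gene IDs in the table, chosen for a higher level in the shell than in the core of the nucleus accumbens (NAc). They were selected on the measured values themselves: a mean of at least 5 CPM (the count as a share of the library's total, in parts of 1000000) over the 8 shell libraries, a mean at least 1.5 times that of the 8 core libraries, and shell above core in all 8 rats. Genes whose NAc mean was 8 or more times the mean of the ventral tegmental area (VTA), or an eighth of it or less, were left out. Of the 17323 genes, 11683 reached the level, 302 of these reached the ratio, 169 were above core in every rat and 156 lay within the VTA limits, 7 having been dropped as high in NAc and 6 as high in VTA. The same rule turned round, core over shell, found 95 genes, which serve below as the most similar list. Because the shell and core libraries chose the members, every shell against core value of theirs is a description and carries no test.

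RNA was sequenced from 8 male F1 rats of the inbred strains F344 (Fischer) and BN (Brown Norway), with 1 library per rat from NAc core, NAc shell and VTA. In cross A the father was F344 and the mother BN (rats 1, 2, 11 and 15), and in cross B this was turned round (rats 3, 4, 13 and 16), so the autosomes of both are heterozygous for the same 2 strains. The labels give daily intraperitoneal injections for 4 days of 0.4 mg/kg nicotine (rats 1, 2, 3 and 4) or saline (rats 11, 13, 15 and 16), then, for 4 rats of each kind, intravenous nicotine of 30 µg/kg per infusion, 10 infusions a day on 6 days from day 7, and tissue of about 20 mg on day 15. The labels of single samples give the injection but not the intravenous schedule, and no age. According to the paper, the rats self-administered the intravenous nicotine by lever press, and passive infusions made up the rest of each session. The paper reports that rats of cross A, but not of cross B, were more inclined to self-administer. Every comparison of cross A with cross B is therefore also a comparison of inclined with disinclined rats. Core and shell were separated by hand, and the labels' preparation batches follow the groups: in NAc the nicotine rats of cross A are batch E, those of cross B batch F, and all saline rats batch G.

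The NAc is the ventral part of the striatum and is built mostly of GABAergic medium spiny neurons. The core resembles the dorsal striatum in its connections and is tied to learned, cue-driven action, whereas the shell exchanges fibres with the hypothalamus, amygdala and ventral hippocampus and is tied to feeding, novelty and the primary effects of rewards. Dopamine neurons of the VTA project to both, and nicotine raises dopamine release with a preference for the shell.

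Total counts ran from 17563458 to 24405856 per library. The table holds Ensembl IDs with no gene names, and the reference gene table held 0 Ensembl IDs, so symbols, positions and promoter sequences were not used here, and the lists of neuropeptides, receptors, transcription factors and cell type markers, as well as the check of each region against its defining markers, were not analysed here. In this tissue-level RNA, fewer cells of a type and less RNA per cell cannot be told apart. The replicates are separate rats. The VTA library of cross A replicate 2 (batch L) stood apart from the other 7 of its region, and the rule does not use it.

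The members were moderately, not exclusively, higher in shell. The ratio of the shell mean to the core mean had a median of 1.75, with quartiles of 1.60 and 2.15 and a range of 1.5003 to 7.96. It lay between 1.5 and 2 in 108 members, between 2 and 3 in 37, between 3 and 4 in 9 and at 4 or more in 2. Over the other 11527 genes with a mean shell level of at least 5 CPM, the median ratio was 1.03. The nearest members inside the 1.5-fold limit stood at 1.5003, 1.5044 and 1.5063, and the nearest genes outside it that met the other conditions at 1.4997, 1.4991 and 1.4980, so the limit cut through a continuous run of values. All members were read in every library, with 0 of them at a count of 0 anywhere. The mean shell level was under 10 CPM in 25 members, 10 to 50 CPM in 97, 50 to 100 CPM in 15 and 100 CPM or more in 19. These levels are not divided by gene length and do not order the genes against each other.

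**Figure D1:**
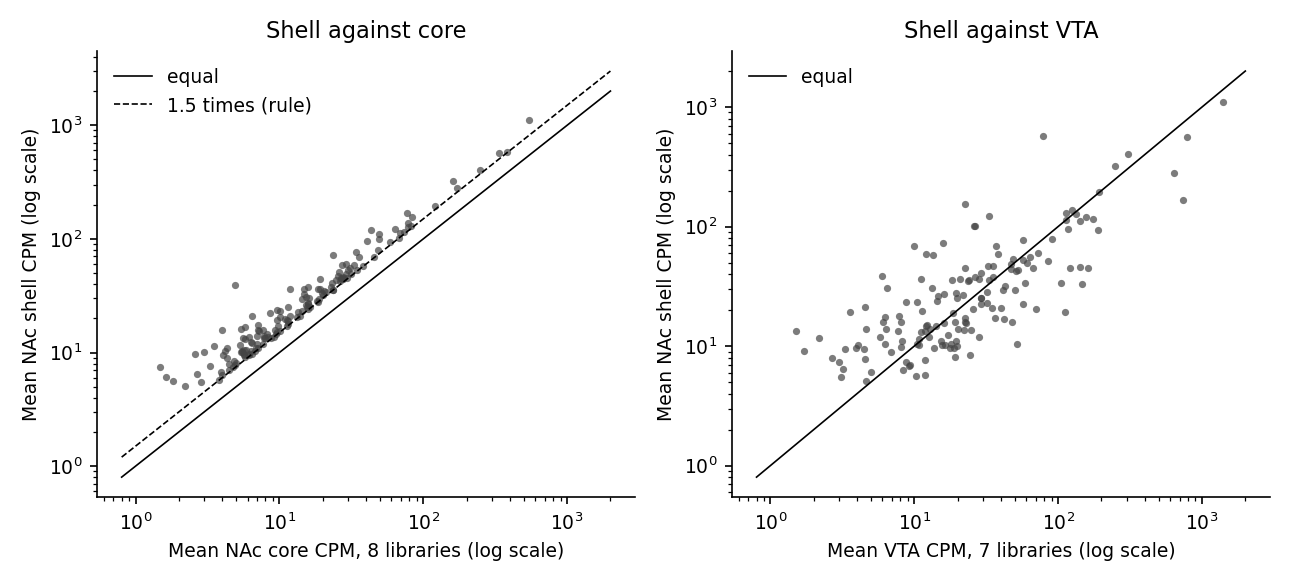
Each point is 1 of the 156 members; the vertical axis is its mean NAc shell level in CPM and the horizontal axis its mean NAc core level (left, 8 libraries) or mean VTA level (right, 7 libraries), all on log scales. On the left every point lies on or above the dashed 1.5-fold line, as the rule demands, with most just above it; on the right the points scatter on both sides of the line of equality, 75 of them below it.

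In 100 of the 156 members the lowest shell library lay above the highest core library, a separation seen in 203 (1.76%) of the other 11527 genes; in the other 56 the 2 regions overlapped although each rat's own shell lay above its own core. In 41 members every single rat reached a ratio of 1.5, and in 21 at least 1 rat fell below 1.1. Across all genes, edgeR's quasi-likelihood test between the 8 shell and 8 core libraries called 2457 of 16289 genes at a Benjamini-Hochberg adjusted p under 0.05. Of these, 1174 were higher in shell, or 7.21% of the genes tested. The members were chosen on that same difference, and nothing is read from their own results in it.

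The gene with the largest ratio was ENSRNOG00000005392, with a shell mean 7.96 times the core mean. It stood at 2.22, 3.66, 5.93 and 3.86 CPM in the core of cross A and at 2.49, 13.1, 3.33 and 4.48 CPM in the core of cross B. In shell it stood at 10.9, 15.0, 61.6 and 56.3 CPM in cross A (rats 1, 2, 11, 15) and at 28.4, 70.4, 55.7 and 12.8 CPM in cross B (rats 3, 4, 13, 16). The shell libraries split into 3 between 10.9 and 15.0 CPM, 1 at 28.4 CPM and 4 between 55.7 and 70.4 CPM, so the shell level differed between rats nearly as much as the regions did, and the highest core library lay above the lowest shell libraries. The ratio within a rat ran from 2.86 in rat 16 to 16.8 in rat 13. The VTA libraries, at 2.41 to 8.17 CPM, stayed below every shell library. The gene with the next largest ratio, ENSRNOG00000011250 (5.04), behaved differently: its 8 shell libraries, from 4.09 to 11.6 CPM, all lay above its 8 core libraries, from 0.697 to 3.44 CPM. The core values rest on 14 to 62 counts and carry a large counting error. Its VTA libraries ran from 0.377 to 4.40 CPM, past the core libraries at both ends and just into the shell range. These are the 2 IDs printed for a high ratio, picked after their values were seen.

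The members took 0.383% to 0.508% of all counts in the core libraries and 0.745% to 0.936% in the shell libraries. To set the libraries side by side, each member's CPM was divided by its mean over the 16 NAc libraries, and the median over members was taken. In core A this relative level was 0.592, 0.694, 0.706 and 0.718 (rats 1, 2, 11, 15), and in core B it was 0.687, 0.715, 0.770 and 0.706 (rats 3, 4, 13, 16). In shell A it was 1.15, 1.28, 1.46 and 1.33, and in shell B it was 1.23, 1.33, 1.29 and 1.19. The gap between the regions is what the rule selected; the spread within a region is not, and it was wider in shell A (SD 0.128, n = 4) than in shell B (SD 0.0627, n = 4), a difference of spreads that was not tested. The median over the 95 core-high genes moved the other way in the shell libraries: it was 0.791 and 0.789 in rats 1 and 2, 0.643 and 0.580 in rats 11 and 15, 0.665 and 0.616 in rats 3 and 4, and 0.705 and 0.782 in rats 13 and 16. The shell libraries in which the members were low (rats 1 and 16) were thus among the 3 in which the core-high genes stood at 0.782 or more.

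**Figure D2:**
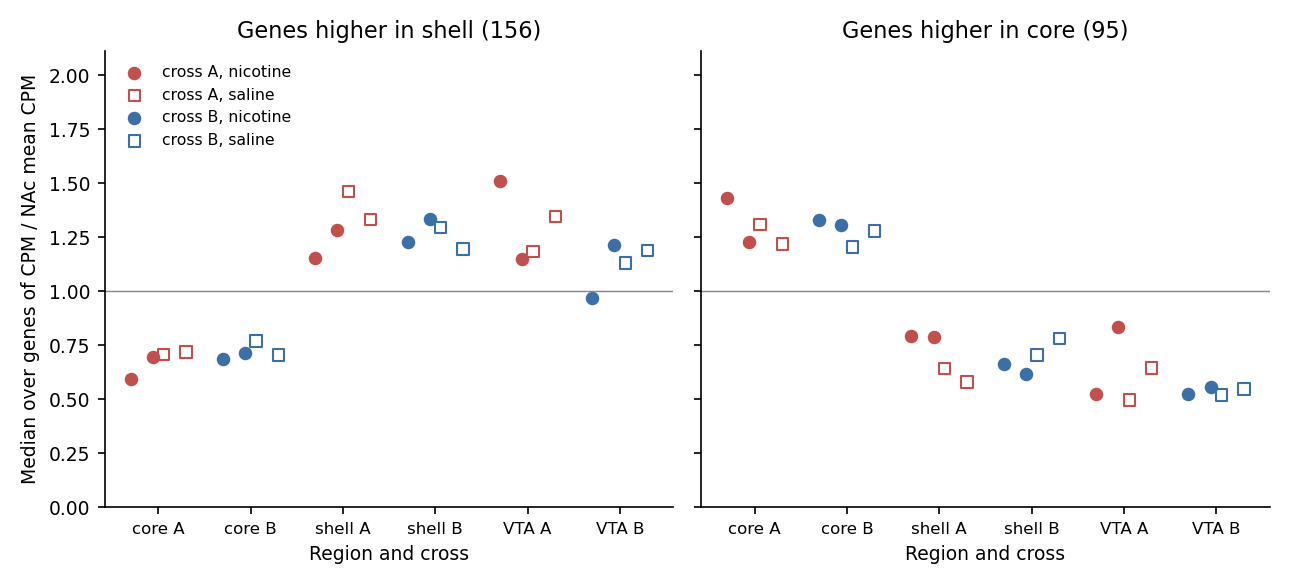
Each point is 1 library; the vertical axis is the median over genes of the CPM divided by the gene's mean over the 16 NAc libraries, for the 156 members (left) and the 95 genes chosen by the mirrored rule (right), by region and cross on the horizontal axis, with filled circles for nicotine and open squares for saline. Core libraries sit at 0.592 to 0.770 and shell libraries at 1.15 to 1.46 on the left, VTA libraries at 0.967 to 1.51, and the order of the shell libraries on the right is roughly the reverse of that on the left.

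Within a region the members had larger coefficients of variation from rat to rat than other genes, a difference that was not tested; their median shell level, 22.5 CPM, was also below the 38.5 CPM of the other genes. The coefficient of variation over the 8 shell libraries had a median of 16.5% (quartiles 12.6% and 20.5%), beside 8.93% for the other 11527 genes, and over the 8 core libraries 18.7% beside 9.78%. On log2 CPM, the first principal component of the 8 shell libraries held 49.0% of the members' variance and 22.3% of the other genes'. On that component rats 1, 2 and 16 lay on one side (scores of 0.52, 0.33 and 0.45) and rats 3, 4, 11, 13 and 15 on the other (-0.08, -0.42, -0.30, -0.15 and -0.34). Of the members, 110 were higher towards the second side and 46 towards the first. Rat 11 had the highest shell library for 41 members, and rats 1 and 16 the lowest for 41 and 36. In core, rat 13 was highest for 43 members and rat 1 lowest for 72. These counts describe the libraries used to choose the genes and were given no test.

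Rats were compared by leaving out the NAc libraries of 1 rat, choosing genes on the other 7 rats and reading the ratio in the left-out rat. The VTA limits were still set by the 7 VTA libraries, which include that rat's own except for rat 2. The left-out rat's median ratio over the genes chosen without it was 1.99 in rat 1, 1.72 in rat 2, 1.67 in rat 3, 1.87 in rat 4, 1.93 in rat 11, 1.26 in rat 13, 1.63 in rat 15 and 1.62 in rat 16. In the rat not used, 95.7% to 99.3% of the genes were above 1 in 6 of the 8 rats, 86.1% in rat 15 and 66.5% in rat 13, beside 53.0% to 60.5% of the other genes. The ratio of 1.5 was reached again by 59.4% to 81.6% of the genes in 7 rats and by 36.7% in rat 13.

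Rat 13 stood out in this reading. Without it 248 genes met the rule, 148 of them members, whereas without any other single rat between 152 and 180 did. Of the 100 genes that rat 13 alone kept out, 83 were lower in its shell than in its core. Their median level in rat 13 was 1.52 times that of the other rats in core and 0.703 times in shell, so in these genes, which are the ones in which rat 13 broke the rule, both of its NAc libraries lay towards the other region. Rat 15 kept out 31 genes, 25 of them with shell below core, and there the shell level was 0.511 times and the core level 1.35 times that of the other rats. In the genes rat 13 kept out, the VTA mean was above the shell mean in 61 of 100, and in those of rat 15 in 28 of 31. Over the 156 members themselves, which had to be higher in shell in every rat, rat 13 had the lowest median ratio (1.67), followed by rat 16 (1.68), rat 3 (1.74), rat 15 (1.76), rat 2 (1.81), rat 4 (1.88), rat 1 (2.02) and rat 11 (2.02). The quartiles over genes in rat 13 were 1.35 and 2.05, a spread that describes genes and not the error of a rat's median. With 1 library per region and rat, that error was not estimated, and neighbours in this order are not told apart.

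**Figure D3:**
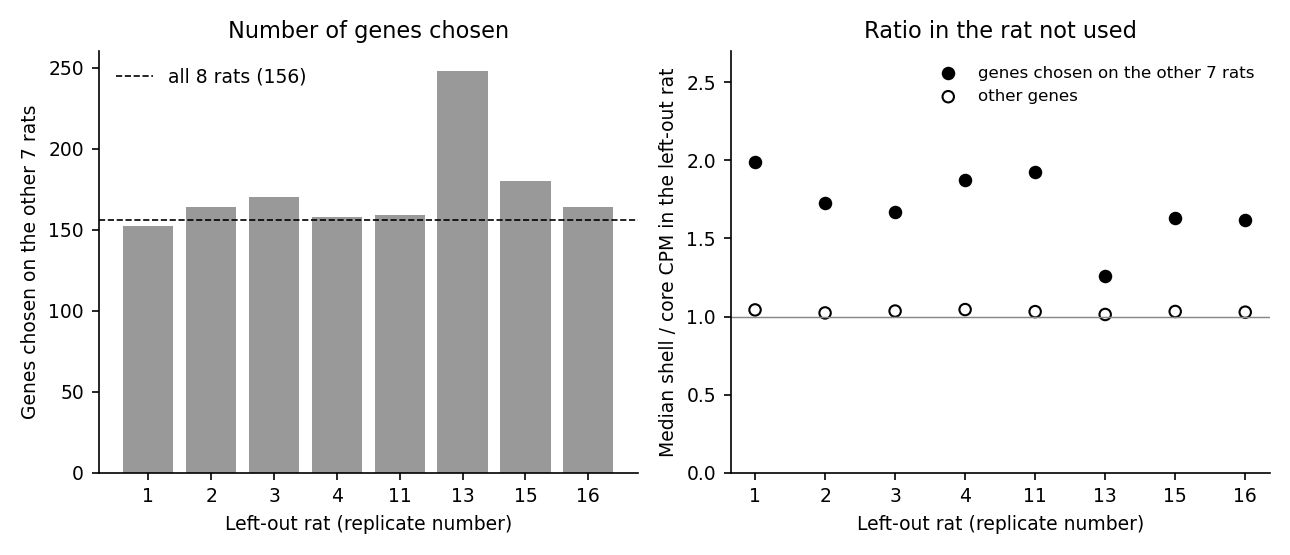
On the horizontal axis is the rat left out. The left panel gives the number of genes that met the rule on the other 7 rats, with a dashed line at the 156 chosen on all 8, and the right panel the median ratio of shell to core CPM in the left-out rat, for the genes chosen without it (filled) and for the other genes (open); rat 13 stands apart, with 248 genes and a median of 1.26.

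The VTA, which the rule used only to drop extreme genes, divided the members into 3 groups. In 75 the VTA mean was above the shell mean, in 47 it lay between core and shell, and in 34 it was below core. Among the other genes, 44.6% had a VTA mean above the shell mean and 49.5% a VTA mean below both NAc means. In 19 members the VTA mean was at least 2 times the shell mean, and in 11 it was at most 0.5 times the core mean. The ratio of shell to core was similar in the 3 groups, with medians of 1.70, 1.79 and 1.88.

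In the NAc libraries the 3 groups overlapped. Their relative level in shell ran from 1.14 to 1.49 in the group high in VTA, from 1.19 to 1.46 in the middle group and from 1.14 to 1.42 in the group low in VTA. In the 7 VTA libraries that set the groups it ran from 1.66 to 2.27, from 0.791 to 1.17 and from 0.324 to 0.458. The VTA library that was not used, cross A replicate 2, stood at 1.47, 0.991 and 0.524. It was thus below the range of the other VTA libraries in the first group and above it in the last, nearer to the NAc in both, and its core-high genes stood at 0.832, beside 0.497 to 0.644 in the other 7. What part these values have in a VTA comparison was not tested. The main VTA comparison of the members is given with and without that library, and that of the core-high genes only with it.

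The comparison of the crosses asked whether the members' levels differed between cross A and cross B. Cross also carries the mother's strain, the strain of the X chromosome and the reported inclination to self-administer. Among nicotine rats it carries the batch as well. Parental origin cannot be told apart from these in a comparison of 4 libraries with 4. In shell, 0 members passed an adjusted p under 0.05 in edgeR's quasi-likelihood test of 4 libraries against 4, in which 1 of 16289 genes (0.00614%) did. At an unadjusted p under 0.05 there were 6 members, 5 of them higher in cross A, beside 4.00% of all genes, and DESeq2 called 0 members and 0.0307% of all genes at the adjusted level. That count of 6 moved with single rats: it was 15 without rat 1, 18 without rat 15 and 10 without rat 16, while the share of all genes was 3.21%, 5.88% and 4.33%. The median log2 difference, cross A over cross B, was 0.04 over the members and 0.00 over all genes. The members' shell median changed sign without rat 11, to -0.03, and was 0.07 without rat 13. In core, 0 members passed the adjusted threshold, beside 3 genes (0.0184%), and 12 had an unadjusted p under 0.05, 10 of them lower in cross A, beside 9.36% of all genes. Without rat 15 there were 20, beside 8.64%. DESeq2 called 1 member in core, beside 0.369% of all genes. In VTA 0 members passed, as did 0 of all genes, and DESeq2 called 0 members, beside 0.0370% of all genes. There 15 members had an unadjusted p under 0.05, 11 of them higher in cross A, beside 5.70% of all genes. Leaving out replicate 2 gave 14, beside 7.25%. The count was 9 without rat 3, 34 without rat 11, 8 without rat 13 and 23 without rat 15, while the share of all genes was 3.14%, 11.1%, 2.51% and 5.53%, and it was 25 with DESeq2, beside 6.63%. The median log2 difference in VTA was 0.12 over the members, with 106 of 156 above 0. It was 0.03 over all genes and 0.22 over the 95 core-high genes, on the same side. The core-high value includes replicate 2 and was not computed without it. In replicate 2 the core-high genes stood at 0.832, beside 0.497 to 0.644 in the other 7 VTA libraries. The members' median was 0.13 without replicate 2, 0.0078 without rat 1 and 0.04 without rat 3. Within batch G, where the saline rats of both crosses can be compared, 0 members passed in shell, core or VTA, beside 0.0246%, 0.0184% and 0 of all genes. At an unadjusted p under 0.05 there were 15 members in shell, beside 2.51% of all genes, 14 in core, beside 8.22%, and 4 in VTA, beside 3.02%. The members' median in these rats was 0.14 in shell, with 120 of 156 above 0, -0.0029 in core and 0.02 in VTA, beside 0.0072, 0.0040 and 0.0073 over all genes. For VTA that comparison also holds 1 library of batch L.

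The gene with the smallest p of any member in these tests was ENSRNOG00000020557, lower in the core of cross A. It stood at 24.3, 30.2, 27.1 and 32.8 CPM in core A (mean 28.6 ± 3.69, SD, n = 4) and at 36.6, 45.6, 49.2 and 40.0 CPM in core B (mean 42.9 ± 5.61, SD, n = 4), and the 2 crosses did not overlap. The log2 difference was -0.57 ± 0.11 (SE), and its adjusted p was 0.280 by the edgeR test and 0.00232 by DESeq2, so its call rests on the tool. In shell it stood at 62.8, 47.1, 73.1 and 67.0 CPM in cross A and at 79.3, 72.8, 77.4 and 71.3 CPM in cross B, with a log2 difference of -0.27 ± 0.11 (SE, adjusted p 0.995 in edgeR), and the crosses overlapped. In VTA 7 libraries lay between 8.45 and 12.6 CPM, and the library of cross A replicate 2, at 30.9 CPM, lay within the range of the core libraries.

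Nicotine against saline on the injection days gave 0 members past the adjusted threshold in shell and 0 in core, and 0 of all genes in either, by edgeR's quasi-likelihood test; DESeq2 called 0 members in each, beside 0.0246% of all genes in shell and 0.0185% in core. At an unadjusted p under 0.05 there were 8 members in shell, beside 2.95% of all genes, and 8 in core, beside 6.39%. All 16 of these values were lower after nicotine, as were 221 of the 481 such genes in shell and 602 of the 1041 in core. Of the 95 core-high genes, 7 had such a p in shell, 7 of them higher after nicotine, and 8 in core, 7 of them higher, with medians of 0.03 and 0.10. The members' shell count was 5 without rat 1, 19 without rat 4, 4 without rat 11, 3 without rat 13, 3 without rat 15 and 28 without rat 16, while the share of all genes was 3.23%, 3.63%, 3.73%, 2.74%, 2.82% and 4.03%. The core count was 5 without rat 1, 14 without rat 3, 13 without rat 4, 15 without rat 11 and 4 without rat 15, while the share of all genes was 4.24%, 7.24%, 4.84%, 5.55% and 6.35%. The median log2 difference over the members, nicotine over saline, was -0.07 in shell and -0.11 in core, with 109 and 119 of the 156 members below 0, beside medians of 0.00 over all genes in each. The shell median was -0.03 without rat 1, -0.02 without rat 11 and -0.11 without rat 16, and the core median -0.05 without rat 1. All saline libraries of the NAc are batch G and all nicotine libraries batch E or F, so that the injection cannot be told apart from the batch.

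Apart from shell against core, which chose the members, 7 tests were run. Of these 7, the cross by injection difference in shell gave the largest share of members at an unadjusted p under 0.05. In it 0 members passed the adjusted threshold in edgeR. The difference is the log2 ratio of cross A to cross B in nicotine rats minus that in saline rats. The quasi-likelihood test called 57 of all genes (0.350%; 1 without rat 1, 134 without rat 11) and 0 members, with a smallest adjusted p of 0.0810 among members; DESeq2 called 11 members, 9 of them below 0, beside 225 of 16278 genes (1.38%), 173 of them above 0. At an unadjusted p under 0.05 there were 40 members (25.6%), beside 7.42% of all genes. Of these 40, 33 were below 0, whereas of the 1208 such genes in all 483 were. The median over the members was -0.24, with quartiles of -0.59 and 0.05, beside -0.01 over all genes, and 105 of 156 members were below 0. The members' median was -0.16 without rat 11, -0.38 without rat 13 and -0.15 without rat 16.

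Over all 156 members, the shell level was lower in cross A than in cross B among nicotine rats and higher among saline rats in 83 (53.2%), beside 28.2% of all tested genes and 7 of the 95 core-high genes. The nicotine rats of cross A had the lowest of the 4 mean levels in 69 members (44.2%), beside 29.1% of all tested genes, and the saline rats of cross A the highest in 80 (51.3%), beside 23.8%. The median ratio of cross A to cross B over the members was 0.913 in nicotine rats and 1.11 in saline rats, beside 0.989 and 1.00 over all tested genes. In the 33 members, which were picked by this same difference in these libraries, the ratios were 0.704 and 1.32. By VTA group, 19 of the 75 members high in VTA had an unadjusted p under 0.05, 18 of them below 0; of the 47 between, 10 had, 8 of them below 0; and of the 34 low in VTA, 11 had, 7 of them below 0. The core-high genes gave the opposite sign, with 50 of 95 at an unadjusted p under 0.05, 48 of them above 0, 13 called and a median of 0.52. Both lists were chosen by shell to core ratios in these same libraries, so their opposite signs are not separate evidence. The members also varied together, with 49.0% of their shell variance on the first principal component. Counts of members are therefore not counts of separate observations. The members' relative shell level was 1.15 to 1.28 in nicotine rats and 1.33 to 1.46 in saline rats of cross A. In cross B these ranges overlapped, at 1.23 to 1.33 and 1.19 to 1.29. The core-high genes were higher in nicotine rats than in saline rats of cross A (0.789 to 0.791 beside 0.580 to 0.643). In cross B they were lower in nicotine rats (0.616 to 0.665 beside 0.705 to 0.782). What part the mix of core and shell tissue in each library has in this was not tested. Each of the 4 combinations holds 2 rats, and the nicotine rats of cross A and cross B differ in batch (E and F), so cross by injection and batch cannot be told apart.

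**Figure D4:**
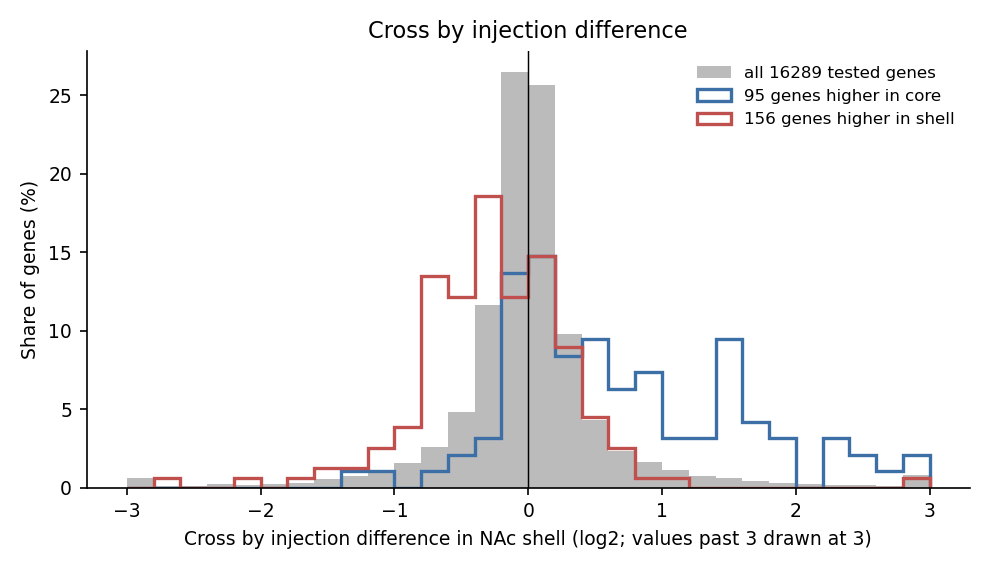
The horizontal axis is the cross by injection log2 difference in NAc shell and the vertical axis the share of genes in each bin of 0.2, for all 16289 tested genes (grey), the 156 members (red) and the 95 core-high genes (blue); values past 3 are drawn at 3. The members are shifted to the left, with a median of -0.24, and the core-high genes to the right, with a median of 0.52.

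The member with the smallest p in that comparison was ENSRNOG00000013953. Its shell libraries stood at 10.3 and 10.5 CPM in nicotine rats of cross A, 31.7 and 31.8 CPM in saline rats of cross A, 26.2 and 36.4 CPM in nicotine rats of cross B, and 28.6 and 12.8 CPM in saline rats of cross B. The 2 nicotine rats of cross A and rat 16 were low and the other 5 high, which are the same 3 low rats as for ENSRNOG00000005392, whose difference was -2.67 ± 0.79 (SE, adjusted p 0.325 in edgeR). For ENSRNOG00000013953 the difference was -2.17 ± 0.43 (SE, adjusted p 0.0810 in edgeR's quasi-likelihood test, 0.0372 in DESeq2). With each rat left out in turn it ran from -2.90 (without rat 13) to -1.69 (without rat 16), with adjusted p in edgeR of 0.0113 without rat 13 and 0.0619 to 0.385 without each of the others. Leaving out a rat leaves 1 library in 1 of the 4 combinations, which is then assumed to vary like the other groups; without rat 13 that library is rat 16, the low one of its pair. Its core libraries, from 7.77 to 13.0 CPM, reached the level of the 3 low shell libraries, and the lowest ratio of shell to core within a rat was 1.102, in rat 2. The 2 IDs given for lower values, this one and ENSRNOG00000020557, have the 2 smallest p among all negative differences of members and were picked after these were seen. No member was printed for a positive difference. For cross by injection, 7 of the 40 members at an unadjusted p under 0.05 were above 0. The largest positive difference of any member was 2.82.

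The remaining question was whether the difference between shell and core depended on the cross. The cross by region test over the 16 NAc libraries called 0 members and 0 of all genes in edgeR's quasi-likelihood fit, and DESeq2 called 0 members, beside 0.0123% of all genes. The shell and core libraries read here are also those that chose the members, so the members' values are given as a description. At an unadjusted p under 0.05 there were 8 members, all with a larger shell to core ratio in cross A, beside 2.19% of all genes. The median over the members was 0.11 on the log2 scale, beside 0.00 over all genes, and 106 of 156 members were above 0. Without rat 15 there were 20 such members, beside 3.33% of all genes, and without rat 16 there were 5, beside 2.38%; the median was 0.07 without rat 1 and 0.07 without rat 16.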

How the data were processed

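Total RNA of NAc core, NAc shell and VTA from 8 rats was sequenced. Per the labels and the methods of the study, reads were trimmed by the authors with fastp (0.20.0), quantified with Salmon (0.12.0) against Rnor version 6, and collapsed to genes with tximport; the deposited values are estimated counts, as whole numbers without normalization. Salmon shares reads among similar transcripts, so near-identical genes can exchange counts. Each of the 24 columns carries a sample title; cross, injection and preparation batch come from the labels.

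CPM were computed from column totals, and the rule was applied to them. The members, the lists and the tests were chosen with earlier results of these data known. Genes with a median-ratio normalized count over 10 in 3 or more of the 24 libraries entered the tests (16289 genes, all 156 members among them) with edgeR (4.0.16, R 4.3.3), TMM factors and quasi-likelihood F tests, two-sided, with Benjamini-Hochberg adjustment over all of these genes. Cross and injection were fitted within a region, cross by injection within shell, and region and cross by region over the 16 NAc libraries. The fits were tested on simulated data. Principal components used log2(CPM + 0.5). Alternatives were DESeq2 (1.42.0), median-ratio (RLE) factors, no filter, filterByExpr, the other factor as a covariate, saline-injected rats alone, rat as a replicate block, and each rat left out. The naming rule needed gene symbols and therefore named 0 genes; the 4 IDs printed were chosen after their values were seen: 2 with the largest ratio and 2 with the smallest p among lower values.

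Shell and core share the rat, and the pairing rests on that: the correlation of the deviations of 1 rat's shell and core libraries from their group means ranged from -0.11 to 0.12 over all tested genes and from -0.30 (rat 13) to 0.49 (rat 4) over the members.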

Additional observations from a re-analysis of the deposited data

Results flagged for a closer look

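Dixon's ratio (the gap of the highest or lowest value to its neighbour, over the whole range) was computed for 39 sets of 4 or 8 values, and chance flags about 1 in 20 of such sets. It flagged 3. The summed level of the members in NAc core was 3833 CPM in replicate 1 of cross A, below 4776 to 4809 CPM in the other 3 rats of that cross. The number of genes chosen without 1 rat was 248 for replicate 13, above 152 to 180 for the other 7. The share of genes above a ratio of 1 in the rat not used was 66.5% for replicate 13, below 86.1% to 99.3% for the other 7; the last 2 values come from the same libraries and are not separate evidence.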

How the results depend on the processing

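The number of members was 130 with TMM-scaled CPM, 169 with no VTA limit, 157 with all 8 VTA libraries, 48 at a ratio of at least 2, 235 at a mean shell level of at least 1 CPM, and 152 to 248 when 1 rat was left out (248 without rat 13). Calls of members were 0 in the main fits of the 7 tests other than shell against core, which chose them. They became 1 under DESeq2 between crosses in core, where it called 60 of 16258 genes, and 11 under DESeq2 for cross by injection in shell, where it called 225 of 16278. There, leaving out a rat gave 0 to 4 (2 without rat 11, beside 134 of all genes, 4 without rat 13, beside 29, and 0 without each of the others), in fits with 1 library in 1 combination that is assumed to vary like the other groups. The 57 of all genes called there became 1 (without rat 1) to 134 (without rat 11), with 6, 24, 3, 29, 36 and 5 without rats 2, 3, 4, 13, 15 and 16. In the other alternatives run for the 7 tests, calls of members stayed at 0. The 40 members at an unadjusted p under 0.05 for cross by injection became 28 (without rat 16, beside 9.90% of all genes) to 60 (without rat 13, beside 7.69%). The median difference between crosses was 0.04 in shell and ran from -0.027 (without rat 11) to 0.074 without 1 rat; in core it was -0.05 and ran from -0.101 to 0.00080 (the latter without rat 1), and in VTA it was 0.12 and fell to 0.0078 without rat 1. With rat as a replicate block, the paired fit called 0 members for cross by region. There, 9 members had an unadjusted p under 0.05, beside 2.08% of all genes. With the block, 2724 genes differed between shell and core, against 2457 without it. The block changed no call of a member for cross by region.

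With 4 libraries a group, or 2 for cross by injection, small differences can go undetected, and the smallest detectable difference is not given here. Batch and injection, and the crosses among nicotine rats, cannot be told apart. Low members rest on few counts, and CPM are relative to each library's total. Gene names, and with them markers of neighbouring tissue in the dissected shell, were not used here.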
